A study of Mus musculus with 8 samples.

Results

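The Cyp1, Cyp2 and Cyp3 families hold the cytochrome P450 enzymes that oxidise drugs, pollutants, steroids, retinoids and arachidonic acid. Members were all mouse genes named Cyp1, Cyp2 or Cyp3 with a subfamily letter and number. The RefSeq table named 61 such genes, and 55 of them were matched to a probe (71 probes) on the array. The array named 20284 genes in all. A gene entered the tests when its brightest probe stood well above background on the 2 arrays of 1 group or more, which left 47 members among 14582 genes. No matched probe was found for Cyp2a5, Cyp2c40, Cyp2c69, Cyp2j7, Cyp2j12 and Cyp3a41a, which were not analysed here.

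Liver RNA of C57BL/6J mice lacking or carrying TIS21 (Btg2, a gene for a transcriptional coregulator with antiproliferative activity) was hybridised to single-colour Agilent arrays. The 4 groups were adult knockout, adult wild type, fetal knockout and fetal wild type, each with 2 arrays. Adults were males of 10 weeks fasted for 20 h. Fetal livers were taken at embryonic day 13.5, and more than 3 fetuses of both sexes from one womb were pooled for each genotype; the labels do not give fasting for them. The design text calls the 2 arrays of a group technical duplicates of 1 RNA sample. Every p-value below therefore measures the error between arrays, not the spread between mice, and each comparison is between RNA samples. The number of adult mice behind each sample, the part of Btg2 removed and the cells it was removed from are not given in the sources used here. Stage is confounded with sex and with fasting.

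P450 enzymes sit in the endoplasmic reticulum and take electrons from the reductase encoded by Por. In adult hepatocytes many of their genes depend on HNF4A, and some are induced by the receptors AHR (Cyp1a), CAR and PXR (Cyp2b, Cyp2c and Cyp3a), which sense foreign compounds. Most hepatic members are switched on around or after birth, and the Cyp2c, Cyp2d, Cyp2j and Cyp3a genes lie in clusters of similar copies. In these data 12 tested members were on chromosome 19, 10 on chromosome 7, 9 on chromosome 15, 7 on chromosome 5 and 5 on chromosome 4.

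Signals are given below as multiples of the array's 75th percentile ("scaled signal"), which lay between 132 and 171 units of processed signal for adult liver and between 278 and 334 for fetal liver. Duplicates differed with an SD of 0.296 (adult knockout), 0.429 (adult wild type), 0.237 (fetal knockout) and 0.271 (fetal wild type) on the log2 scale over all genes. Over the 47 members these SDs were 0.158, 0.266, 0.488 and 0.793 in the same order, and the widest gap was that of Cyp1a1 between the fetal wild-type duplicates (4.53). Btg2 gave processed signals of 6.26 and 8.02 in adult knockout against 149 and 158 in adult wild type, and of 4.54 and 5.14 in fetal knockout against 2071 and 2079.9 in fetal wild type. It was at least 7.62-fold lower in adult knockout and at least 98.4-fold lower in fetal knockout (adjusted p = 7.8e-07 and 1.4e-06, limma). All 13 hepatocyte markers were well above background on every adult array. Each group occupied its own column of the slide, so group and column cannot be told apart.

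In fasted adult liver, 5 members were higher in the knockout sample and 0 were lower, where a call needs an adjusted p under 0.05 and at least a 2-fold difference. Of all genes tested, 4.97% were called higher and 2.53% lower. The 5 were Cyp1a2 and the Cyp2c genes Cyp2c38, Cyp2c55, Cyp2c66 and Cyp2c70. Among the 26 members measured above background in every array 2 were called higher (Cyp2c38 and Cyp2c70) and 0 lower, against 2.99% and 1.71% of all such genes. At an unadjusted p under 0.05, limma gave 20 higher and 8 lower members, against 24.6% and 35.2% of all genes tested. With the adjusted p alone the counts were 19 and 8, and 55.4% of all genes passed in one direction or the other. For those 26 members the median difference was 0.25 on the log2 scale, against -0.1 over all 10588 such genes.

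**Figure D1:**
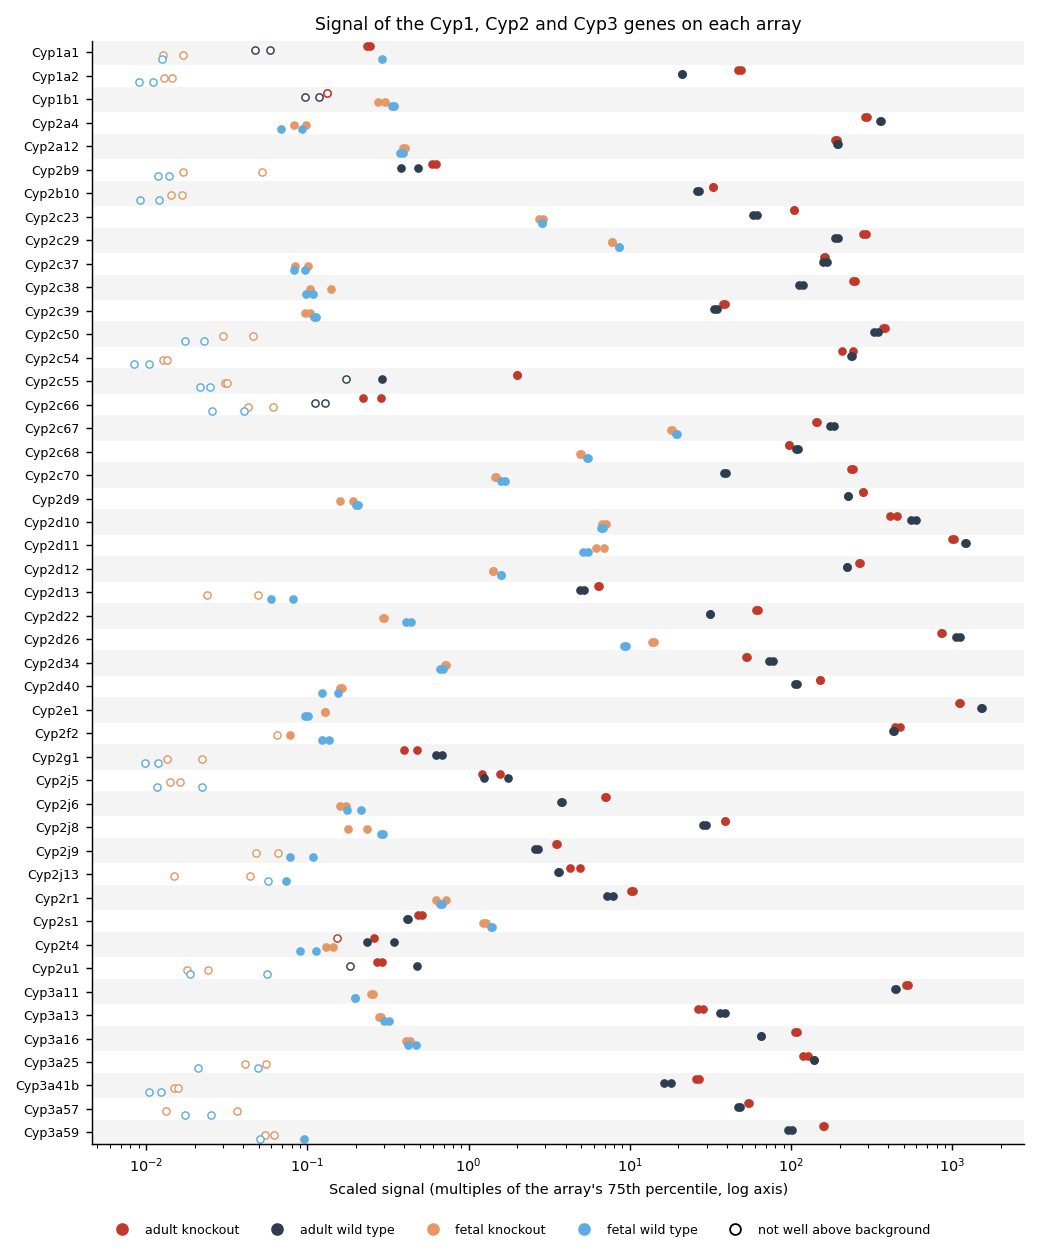
Scaled signal of each of the 47 tested members on each of the 8 arrays (x axis, multiples of the array's 75th percentile, log axis), with 1 point per array coloured by group and open points where the probe was not well above background. Adult points lie far to the right of fetal points for nearly every member. Cyp1b1 and Cyp2s1 lie the other way.

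Cyp2c70, an enzyme that makes the muricholic bile acids of mice, had the smallest standard error of the 5 called genes. Its scaled signal was 236 and 242 in adult knockout, against 39.8 and 38.2 in adult wild type. The knockout arrays lay 6.13-fold above the wild-type arrays, with no overlap (2.62 ± 0.04 on the log2 scale, SE; adjusted p = 3.4e-08, limma). The call held under all 19 alternatives, with differences from 2.59 to 2.93.

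Cyp2c55 oxidises arachidonic acid and is known from the large intestine and from liver treated with inducers. Its scaled signal was 2 on both adult knockout arrays, against 0.292 and 0.175 on the adult wild-type arrays. Of the wild-type arrays only the first was well above background. The difference was 3.14 ± 0.26 (8.82-fold; adjusted p = 4.3e-05, limma) and lay between 1.67 and 3.51 under 18 alternatives, all with the same call. The neighbouring Cyp2c66, also described in intestine, had 0.222 and 0.286 in adult knockout against 0.111 and 0.129 in adult wild type, where neither array was well above background. It was at least 1.41-fold higher in knockout (1.08 ± 0.31; adjusted p = 0.022, limma), and the call was lost with normexp background correction (0.17), without the first adult wild-type array and without the second adult knockout array. Cyp2c55 and Cyp2c66 passed the filter on dim probes only through the adult knockout arrays, as Cyp1a1 and Cyp2u1 did. Cyp2c65, which lies between these 2 genes, did not pass. It had 0.192 and 0.152 in adult knockout (1 array above background) against 0.0542 and 0.051 in adult wild type, and when dim probes were kept it was called higher (1.70 ± 0.45; adjusted p = 0.022, limma).

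Cyp1a2, which metabolises caffeine and aromatic amines, had scaled signals of 46.6 and 48.7 in adult knockout, against 21.1 on both arrays of adult wild type. It was 2.26-fold higher in knockout (1.18 ± 0.12; adjusted p = 1e-04, limma), and the call held under all 18 alternatives. Cyp1a1, the classical target of AHR, had 0.246 and 0.236 in adult knockout against 0.0586 and 0.0472 in adult wild type, where it was dim. It was at least 1.35-fold higher, without a call (2.20 ± 1.23; adjusted p = 0.17, limma). The fetal wild-type duplicates of Cyp1a1 lay far apart (0.0126 and 0.291), and the gene was called higher in adult knockout when either of them was left out or when the adult arrays alone were fitted. Cyp1b1, a mostly extrahepatic member, was dim in both adult groups.

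Cyp2c38, an arachidonic acid epoxygenase, had 249.6 and 241 in adult knockout against 119.5 and 112 in adult wild type by its brightest probe (1.09 ± 0.13; adjusted p = 0.00027, limma). A dimmer probe of the gene gave 0.288 and 0.312 in adult knockout against 0.702 and 0.768 in adult wild type, a difference of -1.29. With the probes averaged the difference was -0.1, so the direction of Cyp2c38 depends on the probe. Among the 12 members with several passed probes, 6 had probes of opposite sign in this comparison, and for 8 the probes lay within 0.5 of each other on the log2 scale. Cyp3a11 differed by 0.25 with one probe and 1.12 with another, and Cyp2c54 by -0.08, 0.84 and 0.86. Clusters of similar copies can share signal, but probe sequences were not compared, so the cause of these gaps was not tested. Values of single Cyp2a, Cyp2c, Cyp2d and Cyp3a genes are uncertain to this extent. In Cyp2j the only gene with several passed probes, Cyp2j6, gave 0.8 and 0.91, and the other Cyp2j genes could not be compared in this way.

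The promoters of the 5 called genes are shown because all 5 were called higher in adult knockout by their brightest probe. For Cyp2c38 another probe gave the opposite direction (-1.29). Each is the RefSeq window from 250 bases before to 50 bases after the start of transcription (build GRCm38.p6), written along the gene. Capitals mark the letters TATAAA (found in TATA boxes) and CAAAG (a core of HNF4A sites) on either strand. On the opposite strand they read TTTATA and CTTTG. The windows are chr9:57683606-57683905 (minus strand) for Cyp1a2, chr19:39463026-39463325 (minus) for Cyp2c38, chr19:39006769-39007068 (plus) for Cyp2c55, chr19:39113648-39113947 (plus) for Cyp2c66 and chr19:40187237-40187536 (minus) for Cyp2c70.
Cyp1a2: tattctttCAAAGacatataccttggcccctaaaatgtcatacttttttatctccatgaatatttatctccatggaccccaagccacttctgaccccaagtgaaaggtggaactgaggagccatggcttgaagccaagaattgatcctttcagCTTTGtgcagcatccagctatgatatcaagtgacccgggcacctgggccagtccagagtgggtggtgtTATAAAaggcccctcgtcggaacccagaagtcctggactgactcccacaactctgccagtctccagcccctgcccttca
Cyp2c38: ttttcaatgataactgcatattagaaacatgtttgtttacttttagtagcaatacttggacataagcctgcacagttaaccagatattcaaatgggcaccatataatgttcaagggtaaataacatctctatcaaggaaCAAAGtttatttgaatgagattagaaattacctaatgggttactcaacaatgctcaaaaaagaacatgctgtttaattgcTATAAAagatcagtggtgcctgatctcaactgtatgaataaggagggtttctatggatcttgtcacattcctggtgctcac
Cyp2c55: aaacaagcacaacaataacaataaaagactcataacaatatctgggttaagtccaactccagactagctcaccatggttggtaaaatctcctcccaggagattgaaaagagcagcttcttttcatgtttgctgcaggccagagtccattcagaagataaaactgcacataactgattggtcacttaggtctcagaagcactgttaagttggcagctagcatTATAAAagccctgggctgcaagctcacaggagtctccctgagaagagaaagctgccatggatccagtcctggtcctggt
Cyp2c66: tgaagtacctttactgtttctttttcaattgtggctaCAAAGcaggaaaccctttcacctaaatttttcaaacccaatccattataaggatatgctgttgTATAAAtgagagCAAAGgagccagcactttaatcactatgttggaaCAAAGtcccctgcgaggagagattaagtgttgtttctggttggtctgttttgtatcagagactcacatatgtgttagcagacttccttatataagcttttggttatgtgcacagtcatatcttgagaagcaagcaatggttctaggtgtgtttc
Cyp2c70: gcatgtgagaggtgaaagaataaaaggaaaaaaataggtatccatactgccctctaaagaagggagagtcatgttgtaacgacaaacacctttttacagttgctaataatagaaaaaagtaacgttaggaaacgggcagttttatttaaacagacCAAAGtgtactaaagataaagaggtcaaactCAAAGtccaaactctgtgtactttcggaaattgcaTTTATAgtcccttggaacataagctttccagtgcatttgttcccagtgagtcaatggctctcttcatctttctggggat

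TATAAA began 29 bases before the start in Cyp1a2, Cyp2c55 and, on the opposite strand, Cyp2c70. It began 31 bases before the start in Cyp2c38, and 150 bases before it in Cyp2c66. Of 42 windows found for 39 of the tested members, 21 (50%) held TATAAA on either strand, against 13.6% of all 32851 promoter windows of the same length. CAAAG was in 38 of the 42 windows (90.5%) and in 53.9% of all windows; the Cyp2c55 window has none. GCGTG, the core of AHR sites, was in 19% of the family's windows and 32.4% of all, and its letters are not in the Cyp1a2 window. AGTTCA, a repeat unit of CAR and PXR sites, was in 9.52% of the family's windows against 14% of all. These matches describe letters in a window and are not binding sites.

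The remaining Cyp2c genes were not called. In their order on chromosome 19 the genes run Cyp2c55, Cyp2c65, Cyp2c66, Cyp2c29, Cyp2c39, Cyp2c38, Cyp2c67, Cyp2c68, Cyp2c40, Cyp2c69, Cyp2c37, Cyp2c54, Cyp2c50 and Cyp2c70, with Cyp2c23 (an arachidonic acid epoxygenase) farther along. By the brightest probes Cyp2c55 and Cyp2c70, at the ends of this row, had the largest adult differences, while genes between Cyp2c67 and Cyp2c50 lay from -0.33 to 0.17. Other probes gave 0.84 and 0.86 for Cyp2c54 and -1.29 for Cyp2c38, so the pattern along the row depends on the probe. Cyp2c29, an abundant hepatic form, had 293 and 278 in adult knockout against 197 and 187 in adult wild type (0.57 ± 0.04; adjusted p = 1.3e-05, limma). Cyp2c23 differed by 0.81 ± 0.03, and was called under quantile normalization and with the deposited value table. These settings gave the same member counts in every comparison, so they are not separate checks.

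**Figure D2:**
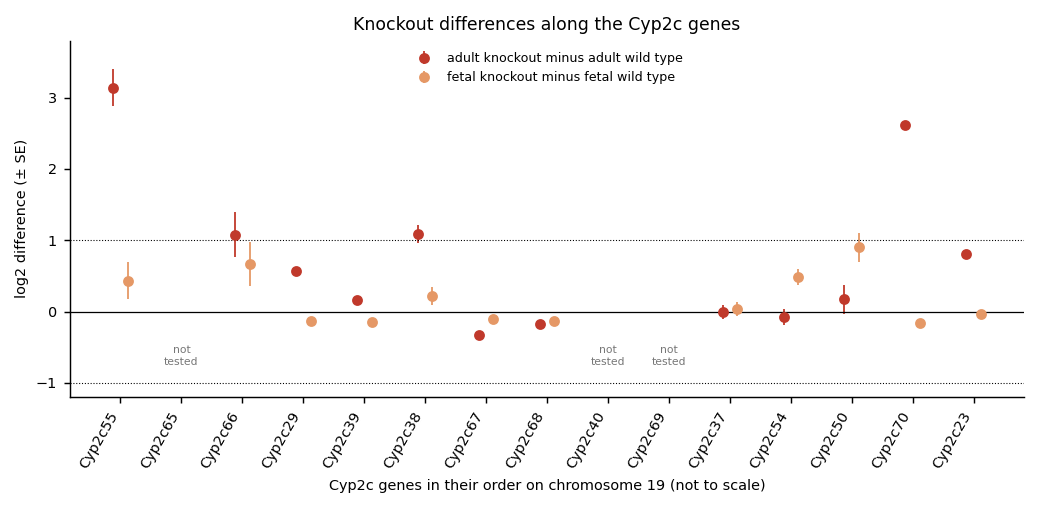
Log2 difference between knockout and wild type (y axis, with the standard error of the fit) for the Cyp2c genes in their order on chromosome 19 (x axis, not to scale), with adult and fetal comparisons side by side. Each gene is drawn by its brightest probe only. Cyp2c55 (3.14) and Cyp2c70 (2.62) stand above the other adult points, while the fetal points of genes measured in both fetal pools lie between -0.16 and 0.22. The other fetal points are of genes dim in both pools and show no fold.

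None of the 9 tested Cyp2d genes was called. Cyp2d22, known from liver and brain, had 60.9 and 62.5 in adult knockout against 31.3 and 31.4 in adult wild type. The arrays did not overlap, and the difference of 0.98 ± 0.04 (adjusted p = 2.3e-06, limma) was just under 2-fold; it was called with normexp and under each of the 4 other scalings. Cyp2d9, a male-biased steroid hydroxylase, had 279.8 and 279.5 against 227 and 225 (0.31 ± 0.07). By the brightest probes the other Cyp2d differences ran from -0.52 (Cyp2d34) to 0.49 (Cyp2d40). Another Cyp2d34 probe gave 0.33, so the direction for that gene depends on the probe. In Cyp2j, whose enzymes epoxidise arachidonic acid, Cyp2j6 had 7.14 and 7.02 in adult knockout against 3.75 and 3.79 in adult wild type (0.91 ± 0.10; adjusted p = 2e-04, limma). Cyp2j5 overlapped between the groups, with 1.57 and 1.22 in adult knockout against 1.75 and 1.25 in adult wild type (-0.09 ± 0.33).

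In Cyp3a, whose enzymes hydroxylate steroids and many drugs, 0 of 7 genes were called by their brightest probes. These differences ran from -0.45 to 0.72. Cyp3a16, described in liver around birth and in females, had 106 and 109 in adult knockout against 65.5 and 65.1 in adult wild type (0.72 ± 0.06; adjusted p = 4.2e-05, limma). Cyp3a11, the main hepatic form, had 534 and 517 against 445 and 439.5 (0.25 ± 0.03) by its brightest probe. Another Cyp3a11 probe, also above background on all 8 arrays, gave 299.7 and 302 against 139 and 139. That is a log2 difference of 1.12, above 2-fold, so the size for Cyp3a11 depends on the probe. Cyp3a13 had 28.5 and 26.4 in adult knockout against 38.8 and 36.4 in adult wild type (-0.45 ± 0.06; adjusted p = 0.00035, limma).

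Cyp2e1, which oxidises ethanol and acetone in hepatocytes around the central vein, had 1113 and 1107 in adult knockout against 1508 and 1529.8 in adult wild type (-0.45 ± 0.03; adjusted p = 9.3e-06, limma). The groups did not overlap, and the difference was below 2-fold. Of 9 pericentral marker genes, 0 were called higher and 1 lower (Oat, -1.07, whose call was lost with normexp and every other scaling). The list median was -0.63, against -0.10 over all genes tested. At an unadjusted p under 0.05 limma gave 2 of the 9 higher and 5 lower, against 24.6% and 35.2% of all genes tested. The part of these markers in the value of Cyp2e1 was not tested. Of 10 periportal markers 1 was called higher (Cdh1, 1.62) and 0 lower. Cyp2f2, a naphthalene-oxidising enzyme of periportal hepatocytes and airway cells, had 442 and 475 in adult knockout against 434 and 428 in adult wild type (0.09 ± 0.09).

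Cyp2a4, a female-biased steroid hydroxylase, had 294 and 286 in adult knockout against 364 and 356 in adult wild type (-0.31 ± 0.14; adjusted p = 0.089, limma). Cyp2b10 and Cyp2b9, targets of CAR, differed by 0.31 ± 0.14 and 0.50 ± 0.48. Cyp2b10 had 33 and 32.7 in adult knockout against 26.8 and 26.2 in adult wild type, and Cyp2b9 had 0.627 and 0.593 against 0.38 and 0.488. Neither was called. Cyp2r1, which hydroxylates vitamin D, had 10.4 and 10.2 against 7.82 and 7.2 (0.45 ± 0.07; adjusted p = 0.0015, limma). Cyp2u1, a fatty acid hydroxylase, overlapped, with 0.289 and 0.272 in adult knockout against 0.482 and 0.184 in adult wild type. Of the 5 tested genes listed as female-biased in mouse liver and the 2 listed as male-biased (Cyp2d9 and Cyp2u1), 0 were called in either knockout comparison. At an unadjusted p under 0.05 limma gave 2 of the 5 higher in adult knockout, against 24.6% of all genes tested. The 3 that passed in the fetal comparison (Cyp2b9, Cyp2b10 and Cyp3a41b) were dim on every fetal array, so they give no direction.

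Regulators of these genes did not pass the call. Of 29 receptors and liver transcription factors 0 were called in adult liver, with a median of -0.18 against -0.10 over all genes tested. The CAR gene Nr1i3 had 34.8 and 35 in adult knockout against 63.9 and 63 in adult wild type (-0.86 ± 0.06; adjusted p = 2e-05, limma). The PXR gene Nr1i2 differed by -0.45 ± 0.03, Ahr by 0.17 ± 0.05 and Hnf4a by -0.17 ± 0.03. At an unadjusted p under 0.05 limma gave 7 higher and 15 lower of the 29, against 24.6% and 35.2% of all genes tested. Among 16 partners and haem genes, Por fell (115 and 103 in adult knockout against 233 and 221 in adult wild type; -1.06 ± 0.05; adjusted p = 4.6e-06, limma). With normexp, with each of the 4 other scalings, and on leaving out the second array of adult knockout, Por was no longer called. Alas1, which makes the first haem precursor, differed by -0.96 ± 0.07, just short of the call. Cyb5a, an electron donor for some P450 reactions, differed by -0.34 ± 0.03, and Hmox1, which degrades haem, rose by 1.02 ± 0.03 (not called once the second array of adult wild type was left out).

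Genes that act beside the P450 enzymes moved both ways in adult liver. Outside the P450 families, 43 drug-processing enzymes were tested. In adult knockout 4 were higher (Aox3, Ugt2b1, Sult1c2 and Ces3b) and 4 lower (among them Sult1e1, Fmo2 and Aldh3a1). Over all genes tested the shares were 4.97% and 2.53%. The call of Sult1c2 held under 11 of 18 alternatives and was lost on leaving out any 1 adult array, and that of Ces3b held under 16 of 18, being lost without the first adult wild-type or the second adult knockout array. The aldehyde oxidase gene Aox3 differed by 1.55 ± 0.15, the oestrogen sulfotransferase gene Sult1e1 by -3.18 ± 0.37, and the flavin monooxygenase gene Fmo2 by -2.35 ± 0.13. Among 13 targets of CAR and PXR outside the P450 families, the glutathione transferase genes Gsta4 (1.38 ± 0.04) and Gstm3 (1.15 ± 0.03) rose and Por fell. Among 6 such targets of AHR, Aldh3a1 (-1.15 ± 0.32) was the 1 called gene; its call was lost under median scaling, with normexp and without the second array of either adult group.

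Markers of other cell types also differed between the adult samples, and in bulk liver more cells of a type and more RNA per cell cannot be told apart. All 11 tested macrophage markers were higher in adult knockout (summed scaled signal 363 and 371, against 65.8 and 62.4 in adult wild type), with a median difference of 2.95. Over all genes tested 4.97% were called higher and 2.53% lower. Of 25 markers of intestinal epithelium 16 were tested, and 10 were higher and 2 lower in adult knockout. With normexp 2 of them were higher and 2 lower. Of the 16, 14 were well above background on each adult knockout array and 5 on each adult wild-type array. A marker could enter the test through the adult knockout arrays alone, so these counts rest partly on the filter. Their summed signal was 112 on both adult knockout arrays against 262 and 261 in adult wild type, most of it from Fabp2. Prap1 had 3.18 on both adult knockout arrays against 0.139 and 0.171 in adult wild type (at least 17.8-fold higher; adjusted p = 8.7e-08, limma), and Vil1 0.194 and 0.186 against 0.0372 and 0.0382 (at least 1.06-fold higher). Fabp2 had 88 and 88.8 in adult knockout against 233 and 231 in adult wild type (-1.39 ± 0.03). The intestinal transcription factor genes Cdx1 and Cdx2 did not pass the filter. The part of these markers in the values of Cyp2c55 and Cyp2c66 was not tested.

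**Figure D3:**
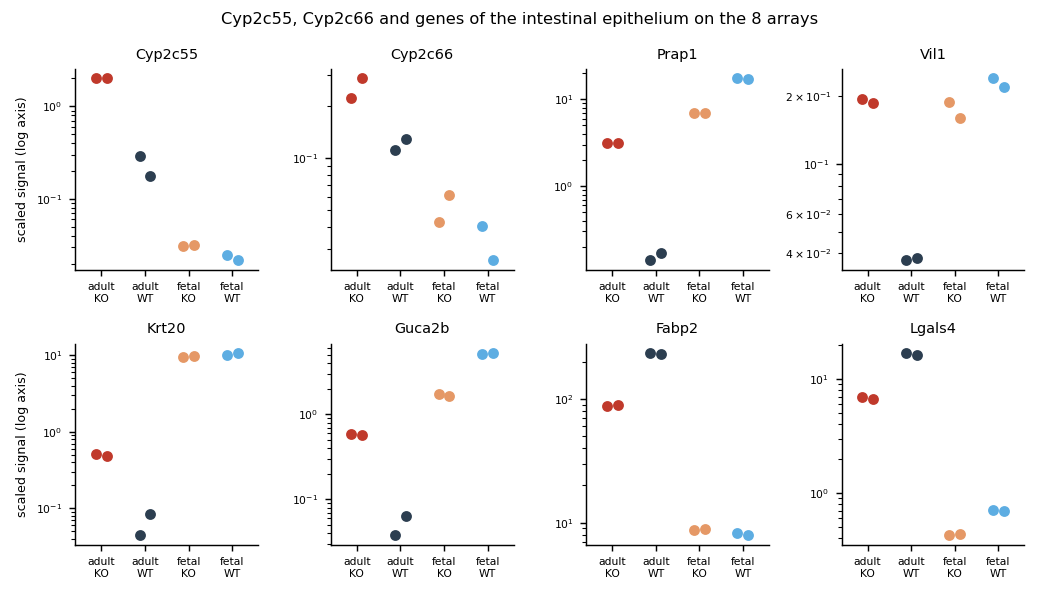
Scaled signal (y axis, log, a scale for each gene) of Cyp2c55, Cyp2c66 and 6 genes of the intestinal epithelium list on the 8 arrays, 1 point per array by group. Cyp2c55, Cyp2c66, Prap1, Vil1, Krt20 and Guca2b are higher in adult knockout than in adult wild type, while Fabp2 and Lgals4 are lower; Prap1, Krt20 and Guca2b are brightest in the fetal pools, where Cyp2c55 and Cyp2c66 were dim.

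Of the other cell type lists in the adult comparison, 3 of 11 stellate cell and fibroblast markers (Acta2, Col1a1 and Col3a1), 1 of 8 endothelial (Tek), 1 of 6 cholangiocyte (Spp1), 1 of 3 kidney tubule (Lrp2) and 1 of 5 lung epithelium markers (Sftpa1, held under 11 of 18 alternatives) were higher. Lower were 1 of 6 hepatoblast markers (Gpc3) and 2 of 8 epidermis markers (Trp63 and Krtdap). The shares called over all genes tested were 4.97% higher and 2.53% lower. With normexp the calls of Col1a1, Tek, Spp1, Lrp2, Sftpa1, Gpc3, Trp63 and Krtdap were lost, and that of Krtdap held under 13 of 18 alternatives. Of the 13 hepatocyte markers 0 were called. At an unadjusted p under 0.05 limma gave 1 higher and 7 lower, against 24.6% and 35.2% of all genes tested. The summed signal of these markers was 6217 and 6321 in adult knockout against 6841 and 6971 in adult wild type. Of the 10 erythroid markers 0 were called, with 5 higher and 2 lower at the unadjusted threshold.

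In fetal liver the knockout pool had 0 members called higher and 0 called lower, against 0.521% and 1.43% of all genes tested. At an unadjusted p under 0.05 limma gave 10 higher and 13 lower members, against 20.9% and 14.2% of all genes tested, and 6 of the 10 were dim in both pools. A plain 2-fold difference of averaged arrays gave 1 higher, Cyp2b9, which was also dim in both pools, and 3 lower (Cyp1a1, Cyp2d13 and Cyp2j13), which were dim in the knockout pool. Of the 47 members, 28 were well above background on all 4 fetal arrays and 13 on none of them, so that for those 13 the fitted differences are not folds. Cyp2d26 had 13.7 and 14.2 in fetal knockout against 9.19 and 9.45 in fetal wild type, with no overlap (0.58 ± 0.04; adjusted p = 0.00025, limma). Cyp2d22 had 0.297 and 0.298 in fetal knockout against 0.409 and 0.442 in fetal wild type (-0.52 ± 0.04; adjusted p = 0.00059, limma). Cyp2e1 had 0.129 on both fetal knockout arrays against 0.0975 and 0.101 in fetal wild type (0.38 ± 0.03), and Cyp3a11 0.256 and 0.248 against 0.197 and 0.199 (0.35 ± 0.03). Both differences were below 2-fold and turned sign with the other probe of each gene, to -0.44 for Cyp2e1 (a probe above background on 5 of the 8 arrays) and -0.22 for Cyp3a11. Cyp2f2 differed by -0.87 ± 0.09 (adjusted p = 0.0012, limma), with 0.0778 and 0.0652 in fetal knockout, where 1 array was dim, against 0.137 and 0.123 in fetal wild type.

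The main regulators and partners were not called in the fetal pools. Nr1i3 differed by 0.38 ± 0.06, Nr1i2 by 0.05 ± 0.03, Ahr by -0.11 ± 0.05, Hnf4a by -0.02 ± 0.03, Por by 0.01 ± 0.05 and Cyb5a by 0.13 ± 0.03. Of the 29 regulators 1 was called lower, Onecut1 (-1.68 ± 0.37), which was dim in fetal knockout and lost its call with normexp and without either fetal wild-type array. Of 43 other drug-processing enzymes 3 were called higher (Ugt1a6a, Ces1f and Nat1, all dim in fetal wild type, and Ugt1a6a and Nat1 dim in both pools), and none of the 3 held with normexp; the call of Nat1 held under 4 of 18 alternatives and that of Ugt1a6a under 13 of 18. Ugt1a6a was also the 1 higher gene of the 6 AHR targets, and 0 of 16 partners and 0 of 13 CAR and PXR targets were called. At an unadjusted p under 0.05 limma gave 9 and 4 of them higher and 2 and 3 lower. Of all genes tested, 20.9% were higher and 14.2% lower at that threshold. Among cell type markers, 6 of 8 tested epidermis markers and 3 of 16 intestinal markers (Lct, Prap1 and Guca2b) were lower in fetal knockout; the call of Lct held under 8 of 18 alternatives. Of 5 lung epithelium markers 2 were higher (Sftpc and Nkx2-1, the call of Nkx2-1 holding under 12 of 18 alternatives) and 1 lower (Sftpd). Lower too were 1 of 10 periportal markers (Pck1, held under 14 of 18 alternatives) and 1 of 6 cholangiocyte markers (Spp1). With normexp the calls of Sftpd, Spp1, Lct, Nkx2-1, Pck1 and the epidermis marker Krt1 were lost. Over all genes tested 0.521% were called higher and 1.43% lower. Summed epidermis signal was 8.14 and 7.99 in fetal knockout against 23.6 and 23.8 in fetal wild type. Of the 11 macrophage markers 0 were called (7 higher and 0 lower at an unadjusted p under 0.05, limma), with summed signals of 121 and 119.6 in fetal knockout against 96.5 and 96.6 in fetal wild type.

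**Figure D4:**
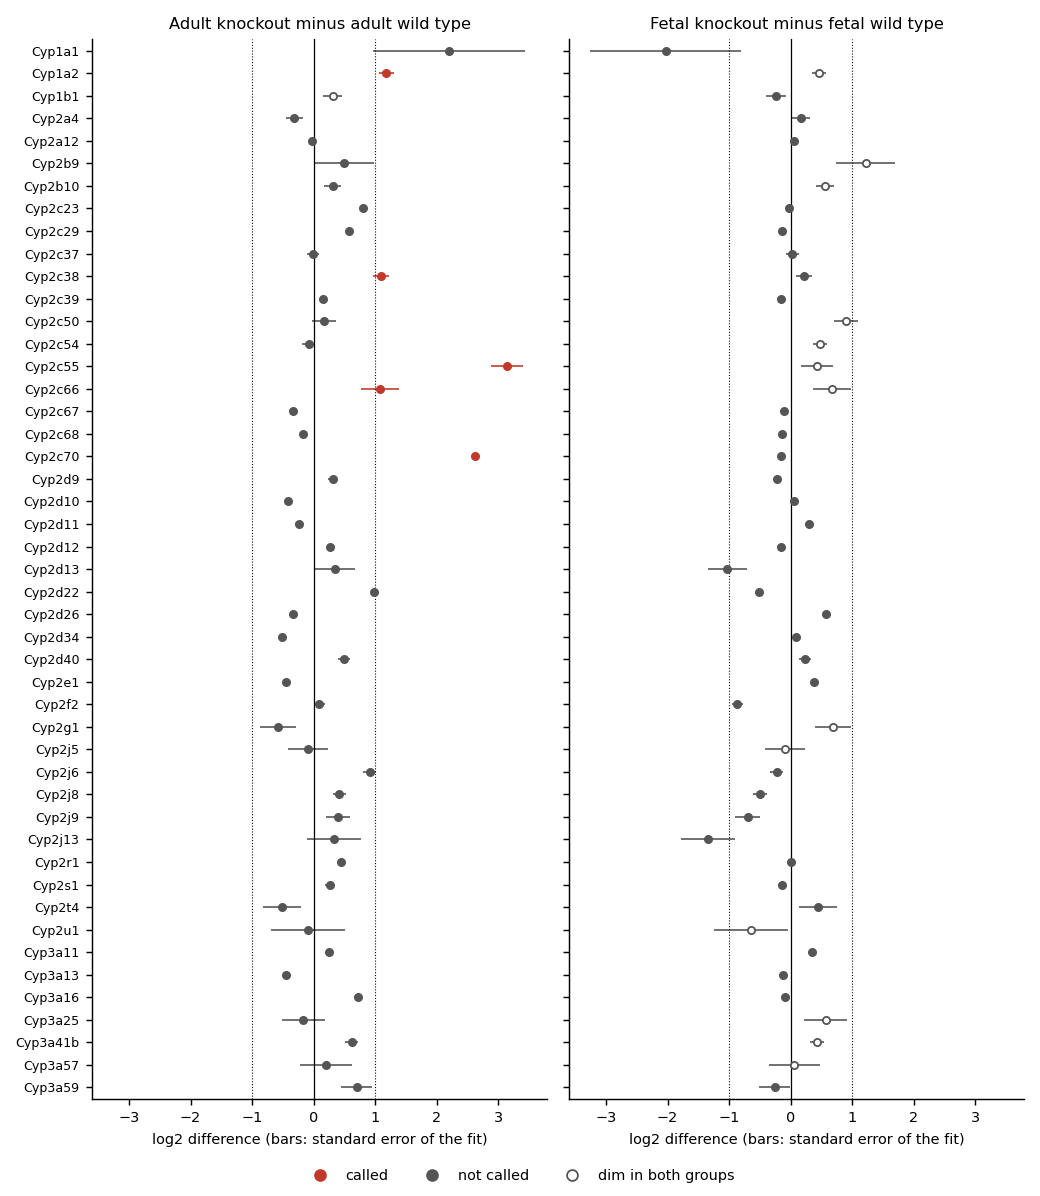
Log2 difference between knockout and wild type (x axis, bars give the standard error of the fit) for the 47 tested members, adult on the left and fetal on the right, with dotted lines at 2-fold. Called genes are red and genes dim in both groups are open. The 5 called genes are all in the adult panel, at 1.08 to 3.14.

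The knockout difference itself was compared between the stages, as the adult difference minus the fetal one. It was called higher for 6 members (6.06% of all genes tested) and lower for 1 (3.7%). Among the 26 members above background in every array 3 were called higher and 0 lower, against 3.49% and 3.0% of all such genes. Cyp2c70 (2.77 ± 0.06; adjusted p = 4.9e-07, limma), Cyp2d22 (1.49 ± 0.06; adjusted p = 3.9e-06) and Cyp2j6 (1.13 ± 0.14; adjusted p = 5e-04) were well above background on all 8 arrays. Cyp2c55 (2.71 ± 0.36), Cyp2d13 (1.38 ± 0.45), Cyp2j9 (1.11 ± 0.28) and Cyp2g1, a steroid-metabolising enzyme known from the olfactory mucosa (-1.27 ± 0.41), were dim in 1 or both fetal pools. For these genes the sizes are fitted values and no bounds. All 5 tested Cyp2j genes had negative differences in the fetal comparison, from -0.09 to -1.35, and 4 of the 5 had positive differences in the adult comparison, up to 0.91. Only Cyp2j6 and Cyp2j8 among them were measured in every group; Cyp2j8 had 0.18 and 0.233 in fetal knockout against 0.285 and 0.294 in fetal wild type (-0.50 ± 0.11), and 39 and 38.7 in adult knockout against 29.6 and 28.4 in adult wild type (0.42 ± 0.11).

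Between the stages nearly every member differed. In the knockout samples 44 of 47 members were higher in adult than in fetal liver and 2 lower, against 25.8% and 27.7% of all genes tested. In wild type the counts were also 44 and 2, against 27.3% and 27.8%. Many members passed the filter only through the adult arrays, so the narrower count is that of the 26 members above background in every array. Of these, 25 were higher and 1 lower in adult in each genotype, with medians of 7.45 (knockout) and 6.89 (wild type), against 0.19 and 0.27 over all 10588 such genes. All 13 hepatocyte markers were higher in adult in both genotypes, and all 10 erythroid markers were lower. Other scalings moved the median of all genes in the wild-type stage comparison from -0.01 to as low as -0.64, and in the adult genotype comparison from -0.10 to as high as 0.09.

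The members called higher in adult in both genotypes were Cyp1a2, Cyp2a4, Cyp2a12, Cyp2b9, Cyp2b10, Cyp2c23, Cyp2c29, Cyp2c37, Cyp2c38, Cyp2c39, Cyp2c50, Cyp2c54, Cyp2c55, Cyp2c66, Cyp2c67, Cyp2c68, Cyp2c70, Cyp2d9, Cyp2d10, Cyp2d11, Cyp2d12, Cyp2d13, Cyp2d22, Cyp2d26, Cyp2d34, Cyp2d40, Cyp2e1, Cyp2f2, Cyp2g1, Cyp2j5, Cyp2j6, Cyp2j8, Cyp2j9, Cyp2j13, Cyp2r1, Cyp2u1, Cyp3a11, Cyp3a13, Cyp3a16, Cyp3a25, Cyp3a41b, Cyp3a57 and Cyp3a59. Cyp2c66 was dim in both wild-type stages, so its wild-type call rests on values near background. Cyp1a1 was called higher in the knockout comparison (at least 3.76-fold) and Cyp2t4 in the wild-type comparison (1.49 ± 0.31). The call of Cyp1a1 was lost without either adult knockout array and without the first fetal knockout array, and that of Cyp2t4 under median scaling.

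Cyp2e1 showed the largest stage difference among members measured in all groups. It had 1113 and 1107 in adult knockout against 0.129 on both fetal knockout arrays, and 1508 and 1529.8 in adult wild type against 0.0975 and 0.101 in fetal wild type. Adult exceeded fetal liver by 13.07 ± 0.03 in knockout and 13.90 ± 0.03 in wild type on the log2 scale (adjusted p = 4.1e-13 and 2.6e-13, limma). Cyp2a4 differed by 11.65 in knockout and 12.13 in wild type, Cyp3a11 by 11.03 and 11.13, Cyp2d9 by 10.65 and 10.12, and Cyp2c37 by 10.78 and 10.82. Another Cyp2c37 probe, also above background on all 8 arrays, gave 6.14 and 5.82. At the other end were Cyp2c67 (2.99 and 3.21), Cyp2r1 (3.92 and 3.48) and Cyp2c68 (4.29 and 4.32). A dimmer probe of Cyp2c67 gave 5.70 and 5.56.

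Several members were bright in adult and dim in fetal liver, so that only a lower limit can be given. Adult liver exceeded fetal liver at least 5901-fold in knockout and 7329.6-fold in wild type for Cyp2c50, a hepatic arachidonic acid epoxygenase. For the brightest Cyp2c54 probe the limits were 3506-fold and 5165-fold. Another Cyp2c54 probe was above background on all 8 arrays and gave differences of 7.23 and 5.94 on the log2 scale, far below those limits, so the size for this gene depends on the probe. For the steroid hydroxylase gene Cyp3a25 the limits were 1915-fold and 3019-fold. Cyp1a2 was at least 743-fold higher in adult in knockout and 459.9-fold in wild type, and Cyp2b10 at least 512-fold and 579-fold. Cyp2j5 was at least 21.6-fold and 32.2-fold higher, Cyp2b9 at least 9.51-fold and 9.39-fold, and Cyp2u1 at least 4.37-fold and 5.58-fold. Cyp3a16, measured in all groups, had 0.408 and 0.436 in fetal knockout and 0.423 and 0.475 in fetal wild type, and adult liver exceeded fetal liver by 7.99 ± 0.06 in knockout and 7.19 ± 0.06 in wild type.

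Cyp1b1 and Cyp2s1 were lower in adult in both genotypes. Cyp1b1, which oxidises oestrogens and aromatic hydrocarbons outside the liver, had 0.133 and 0.132 in adult knockout, where it was dim, against 0.275 and 0.302 in fetal knockout, and 0.118 and 0.0973 in adult wild type, also dim, against 0.346 and 0.335 in fetal wild type. It was at least 1.9-fold lower in adult in each genotype (adjusted p = 0.00028 in knockout and 2.4e-05 in wild type, limma); both calls were lost with normexp. Cyp2s1, an extrahepatic enzyme of epithelia, had 0.489 and 0.515 in adult knockout against 1.23 and 1.28 in fetal knockout, and 0.417 and 0.424 in adult wild type against 1.37 and 1.40 in fetal wild type. Its difference was -1.32 ± 0.07 in knockout, lost with normexp (-0.91), and -1.72 ± 0.07 in wild type (adjusted p = 7.5e-07 and 1.5e-07, limma).

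**Figure D5:**
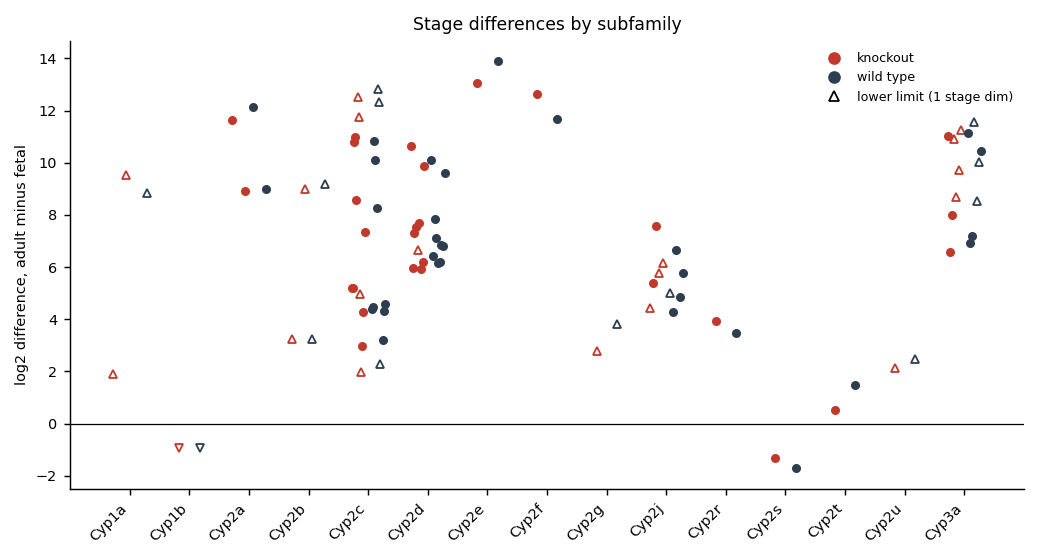
Log2 difference between adult and fetal liver (y axis) for each tested member, by subfamily (x axis), knockout in red on the left and wild type dark on the right. Filled points are measured differences and open triangles are limits for members dim in 1 stage; members dim in both stages are left out. Cyp1b and Cyp2s lie below 0 and the drawn points of the other subfamilies above it; Cyp1a1 in wild type is not drawn.

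Among the regulators 24 of 29 were higher in adult in each genotype and 0 lower. Over all genes tested 25.8% were higher and 27.7% lower in knockout, and 27.3% and 27.8% in wild type. Nr1i3 differed by 8.26 in knockout and 9.51 in wild type, and Por by 3.95 and 5.03. Of the 43 other drug-processing enzymes 40 were higher in knockout and 41 in wild type, and of the 13 targets of CAR and PXR all 13 were higher in both. The 16 partners and haem genes were split, with 8 higher and 7 lower in knockout and 7 higher and 6 lower in wild type.

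The 8 members that did not pass the filter were Cyp2a22, Cyp2b13, Cyp2b19, Cyp2b23, Cyp2c65, Cyp2j11, Cyp2w1 and Cyp3a44. None was well above background on more than 1 of the 8 arrays. Cyp2a22 had 0.0264 and 0.0344 in adult knockout against 0.144 and 0.184 in adult wild type, where 1 array was above background, and it was called lower when dim probes were kept (-2.43 ± 0.58; adjusted p = 0.014, limma).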

How the data were processed

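RNA from 4 liver samples was labelled with Cy3 and hybridised to 8 arrays, 2 per sample. Per the file headers, the deposited intensities (processed signals) were background-subtracted and detrended within each array by Agilent Feature Extraction 10.7.3.1. The authors' value table holds intensities with nearly the same median (18.1) and 75th percentile (184.6) on all 8 arrays. On the log2 scale they correlated with the scanner signals at 0.995 to 0.999. Neither labels nor headers record the step that made them. Control spots and spots marked as outliers were left out, and spots of a probe were averaged. Each array's 75th percentile of log2 signal was subtracted, and 55681 probes were matched by accession to RefSeq, which named 26762. The brightest probe stood for a gene. All 8 arrays entered 1 fit of 4 groups with limma 3.58.1 (R 4.3.3), tested on simulated data, with Benjamini-Hochberg adjustment over 14582 genes. Python 3.11.15, pandas 2.3.3 and numpy 2.4.6 made the tables.

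A gene dim in 1 group has only a bound, the bright group's mean over the higher of the dim probe's own signal and the lowest signal above background. Members and lists were chosen with earlier results of these data known. All members called in any of the 5 comparisons are named; a set of well-known members was described whatever their calls, and of these Cyp2a5 had no matched probe. Of each list at most 6 called genes are named, or 4 markers, apart from small counts named after their values were seen. Alternatives were normexp on median signals (offset 50), 4 other scalings including the value table, other filters, averaged probes, no intensity trend, only the groups compared, slide row as a block, and each array left out. The value table and quantile normalization gave the same member counts and medians in every comparison. They are therefore not separate checks, although both enter the counts of alternatives.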

Additional observations from a re-analysis of the deposited data

Results flagged for a closer look

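The knockout difference differed between adult and fetal liver, by limma's interaction term, for 7 members, of which Cyp2c70, Cyp2d22 and Cyp2j6 were measured in all 4 groups. The other 4 were dim in 1 or both fetal pools, so their values rest partly on background signal. The test compares 4 RNA samples, and its error is that between arrays. It gave 2.77 for Cyp2c70 (adult difference 2.62, fetal difference -0.16), called under all 18 alternatives, and 1.49 for Cyp2d22 (0.98 and -0.52), also called under all 18. Cyp2c55 gave 2.71 (adult difference 3.14, dim in both fetal pools) and was called under all 17 alternatives that hold it. Cyp2c55 passed the filter only through the adult knockout arrays, where it was brightest, so its entry and its call rest on the same values. Cyp2j6 gave 1.13 (0.91 and -0.23), and its call was lost with normexp (0.88) and without the first fetal wild-type array (0.99). Cyp2j9 gave 1.11, with its call lost in 3 alternatives, Cyp2d13 gave 1.38, lost in 11 of 17, and Cyp2g1 gave -1.27, lost in 12 of 17. Intestinal and macrophage markers also differed between the adult samples, and their part in these values was not tested.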

How the results depend on the processing

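In the adult knockout comparison the 5 higher members became 8 under median scaling, 2 among genes above background in every array and 19 with the adjusted p alone; without the filter on dim probes 6 were higher (Cyp2c65 added) and 1 lower (Cyp2a22), both on dim probes, and the 0 lower became 8 with the adjusted p alone. In the fetal comparison the 0 higher became 1 under median scaling, 1 by a plain 2-fold difference and 9 with the adjusted p alone (13.6% of all genes), of which the first 2 counts are Cyp2b9 and 5 of the 9 are other genes dim in both pools; the 0 lower became 2, 3 and 8 in the same order (8.44% of all genes for the last). Leaving out an array gave 0 to 1 higher and 0 to 1 lower. For the difference between the adult and fetal effects, the 6 higher became 13 with quantile normalization and with the value table, 11 with median scaling, 12 with the percentile over detected probes and 18 with the adjusted p alone, but 4 with normexp, 4 among genes above background in every array and 5 without the filter. The 1 lower became 0 with normexp, each other scaling, no filter, and genes above background in every array, 9 with the adjusted p alone, and 0 to 2 with an array left out. Between stages the 44 higher became 26 in each genotype among genes above background in every array, where the best probe was chosen again, and the 2 lower became 1; with normexp the 2 lower became 0 in knockout and 1 in wild type. Values called before or after the change turned sign for Cyp2c38 in adult knockout with probes averaged (-0.1), for Cyp2c54 in the difference of effects with another probe (1.29), and for Cyp1a1 between wild-type stages, which was -2.47 without the first fetal wild-type array and 2.06 without the second. Slide row as a replicate block gave 5 higher and 0 lower in adult knockout and 6 and 1 for the difference of effects; row numbers arrays of different RNA samples, so it pairs no animals. Of the other values of named genes, 4212 kept their side of the call, 104 of them uncalled values that changed sign, while 65 gained a call and 38 lost one; the causes were not tested.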
